A study of Rattus norvegicus with 9 samples.

Results

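The small RNA of the epicardium, the outer layer of the ventricular wall, was described in 3 libraries out of the 9 of the series. The libraries were chosen by their label alone, 1 from each of hearts 6, 7 and 8. The hearts came from male Sprague-Dawley rats of 8 months killed with sodium pentobarbital, for which no genotype or treatment is labelled, so all 3 libraries belong to 1 group. The tissue was the outer 1 mm or so of the left ventricular free wall, so whole tissue and not an isolated epicardial sheet. Each library was a TruSeq small RNA library of 1 animal, and the mid-myocardium and endocardium of the same hearts are used here only where values of a heart are set side by side. No layer was tested against another, and no value below carries a test.

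MicroRNAs (miRNAs) are cut from hairpin transcripts in a nuclear step by Drosha and a cytoplasmic step by Dicer, which leaves a duplex with 1 strand from the 5′ arm and 1 from the 3′ arm of the hairpin. The strand bound by an Argonaute protein is the major strand, and the other, written with an asterisk, is usually degraded. Nts 2 to 8 of the bound strand form the seed, which pairs with target mRNAs, so a read that starts at another nt carries another seed. Reads that differ from the database entry at an end or within the sequence are known as isomiRs. The 3′ end can also gain nts that the hairpin does not encode, most often A or U, through terminal transferases.

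The sequences on which the results turn are given first, as deposited (T for U), from the 5′ end, in lower case with the seed in capitals. The following are mature entries of miRNAs that were among the most abundant or were read with other ends than the entry.
miR-22: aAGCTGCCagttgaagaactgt
miR-26a: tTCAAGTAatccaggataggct
miR-30a: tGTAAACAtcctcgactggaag
miR-30c: tGTAAACAtcctacactctcagc
miR-10a: tACCCTGTagatccgaatttgtg
miR-10b: cCCTGTAGaaccgaatttgtgt
miR-27b: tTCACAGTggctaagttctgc
miR-191: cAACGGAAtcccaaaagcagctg
miR-92a: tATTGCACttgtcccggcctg

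The next set holds the entries of the miR-99, miR-100 and miR-125 miRNAs, shown because 4 of the 5 were among the 10 entries with the highest SD relative to the mean over the hearts, of the 135 with a mean of at least 100 RPMM, and all 5 were lowest in the same heart. They fall into 2 seed groups, ACCCGTA for miR-99a, miR-99b and miR-100 and CCCTGAG for miR-125a and miR-125b.
miR-99a: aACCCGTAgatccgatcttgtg
miR-99b: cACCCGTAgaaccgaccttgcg
miR-100: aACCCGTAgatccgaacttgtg
miR-125a: tCCCTGAGaccctttaacctgtga
miR-125b: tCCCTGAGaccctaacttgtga

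In RefSeq (rat assembly GRCr8), the entry of miR-22 lies at chr10:60805387-60805408 on the + strand, in no other annotated gene. That of miR-26a lies at chr8:127633063-127633084 (+) within Ctdspl, that of miR-30a at chr9:33233946-33233967 (+) outside other genes, and that of miR-10a at chr10:81779730-81779752 (+) outside other genes. The entry of miR-27b lies at chr17:1819163-1819183 (-) within Aopep, that of miR-191 at chr8:118142641-118142663 (+) within Dalrd3, and that of miR-10b at chr3:80035886-80035907 (+) within Hoxd4. The gene table used gives neither exons nor the strand of the surrounding gene. Entries of 48 of the 56 miRNAs above 1000 RPMM were found in RefSeq.

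Values are in annotated reads scaled to a library of 1000000 (RPMM). They rank miRNAs by reads, and adapter ligation and amplification can favour some sequences over others. In hearts 6, 7 and 8 there were 939580, 770583 and 931646 annotated reads, to which unannotated sequences added 719549, 563428 and 687955. A count of 3 reads corresponded to 3.19, 3.89 and 3.22 RPMM, the level that a count of 0 still allows at these depths. These floors, and all intervals given, reflect counting error alone, since amplified reads carried no molecular identifiers. Unless a heart is named, a value is the mean ± SD of the 3.

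Every unannotated sequence analysed had 10 reads or more when the 9 libraries were summed, whereas annotated sequences went down to 1 read. Rarer unannotated sequences were not analysed here, and the shares are of the reads in these tables. Rat entries took 47.7% ± 1.32 of the annotated and unannotated reads, entries of other species 9.56% ± 1.30, and unannotated sequences 42.7% ± 0.597. The unannotated share was 43.4%, 42.2% and 42.5% in hearts 6, 7 and 8, with Wilson 95% intervals of 43.3 to 43.4, 42.2 to 42.3 and 42.4 to 42.6. Its SD over the hearts was the lowest of the 3 classes. Reads of 22 nts, the usual length of a miRNA, were the most common in every heart, at 28.6%, 29.3% and 26.7% of all reads. At this length 82.2% ± 1.94 of the reads belonged to rat entries, 13.2% ± 2.78 to other species and 4.54% ± 0.875 to no entry. Of the annotated reads alone, 80.2% ± 0.679 had 21 to 23 nts. Rat-annotated reads began with T in 62.2% ± 0.902 of cases and with G in 0.779% ± 0.0122.

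**Figure D1:**
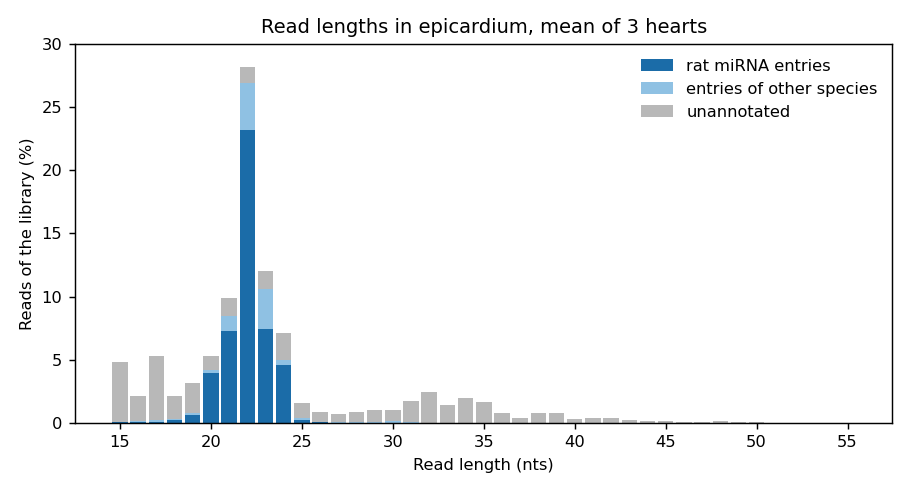
Share of the annotated and unannotated reads (%, vertical axis) at each read length (nts, horizontal axis), as the mean of the 3 epicardial libraries, with rat entries, entries of other species and unannotated reads stacked. The tallest bar is at 22 nts, where rat entries held 82.2% of the reads, while reads of 15 to 19 nts and above 24 nts were mostly unannotated.

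The unannotated reads had other lengths. In hearts 6 and 7 the most common was 15 nts (12.8% and 13.0% of the unannotated reads), and in heart 8 it was 17 nts (16.7%). Between 31 and 36 nts, 99.3% ± 0.0796 of all reads had no annotation. Leading unannotated sequences were recognised as ends of abundant structural RNAs, from general knowledge of rRNA and tRNA and without a search of a reference. They are shown because they were among the most common reads without an entry.
3′ end of 5.8S rRNA: tgtctgagcgtcgct
5′ end of 28S rRNA: cgcgacctcagatcaga
5′ part of a glycine tRNA: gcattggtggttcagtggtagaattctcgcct
3′ end of 5S rRNA: ggaataccgggtgctgtaggcttt
The 77 unannotated sequences that contain the 5.8S fragment held 22%, 16.5% and 8.26% of the unannotated reads of hearts 6, 7 and 8. The 75 that contain the 28S fragment held 3.93%, 3.49% and 14.5%, and the 40 that contain the 5S fragment 4.62%, 0.374% and 0.482%. The libraries thus differed by heart in which fragment was common: 5.8S and 5S fragments were highest in heart 6 and the 28S fragment in heart 8. The 30 sequences with the tRNA fragment held 3.37%, 3.09% and 5.71%.

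Of 304 grouped entries, 276 reached 10 reads in 1 heart or more and were taken as detected, and 218 did so in all 3 hearts. They comprised 145 of 151 rat miRNAs, 68 of 81 entries known from other species and 63 of 72 * sequences. Only 3 entries exceeded 100000 RPMM on average, 16 exceeded 10000 and 56 exceeded 1000. The 3 leading entries held 39.6% ± 4.29 of the annotated reads, the leading 10 held 66.4% ± 2.29 and the leading 20 held 80.4% ± 1.51.

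miR-22, a miRNA abundant in muscle and linked to cardiac hypertrophy, led with 149213 ± 13958 RPMM. It stood at 157517, 157024 and 133098 in hearts 6, 7 and 8, the first rank in hearts 6 and 7 and the third in heart 8. miR-486, a muscle and red cell miRNA annotated here through the human entry, followed with 132863 ± 25955 RPMM (127717, 109866 and 161005). miR-143, a smooth muscle miRNA, had 113731 ± 30854 RPMM (98919, 93076 and 149198). In heart 8 both miR-486 and miR-143 were above miR-22, whereas in hearts 6 and 7 the order was miR-22, miR-486, miR-143. Grouped values of at least 100000 reads were deposited rounded to 1000 reads, which touches these 3 miRNAs only.

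miR-133a, made by cardiomyocytes and skeletal muscle fibres, had 79259 ± 28399 RPMM. Its level was 98482, 92655 and 46639 in hearts 6, 7 and 8, so heart 8 held the least by a wide margin. miR-26a had 45819 ± 11448 RPMM (54338, 50314 and 32806) and was also lowest in heart 8. miR-30a had 37861 ± 10971 RPMM (29708, 33541 and 50335) and was highest there. The low miR-133a of heart 8 was not seen in its other layers, where heart 8 had the most. Mid-myocardium had 97095, 94937 and 130146 RPMM of miR-133a in hearts 6, 7 and 8, and endocardium 84138, 54091 and 92963.

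The miRNAs ranked 7 to 14 lay between 27985 and 15697 RPMM on average, namely miR-30d, miR-10a, miR-181a, miR-378, miR-27b, miR-191, miR-30c and let-7f. Those ranked 15 to 20 were miR-125a, miR-99b, miR-92a, miR-30e, let-7a and miR-150, down to 8639.9 ± 3363 RPMM. The order among neighbours was loose: in none of the 19 neighbouring pairs of the leading 20 did the ranges over hearts separate, and 4 pairs kept their order in all 3 hearts. The leading 20 of each separate heart had 14 miRNAs in common.

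**Figure D2:**
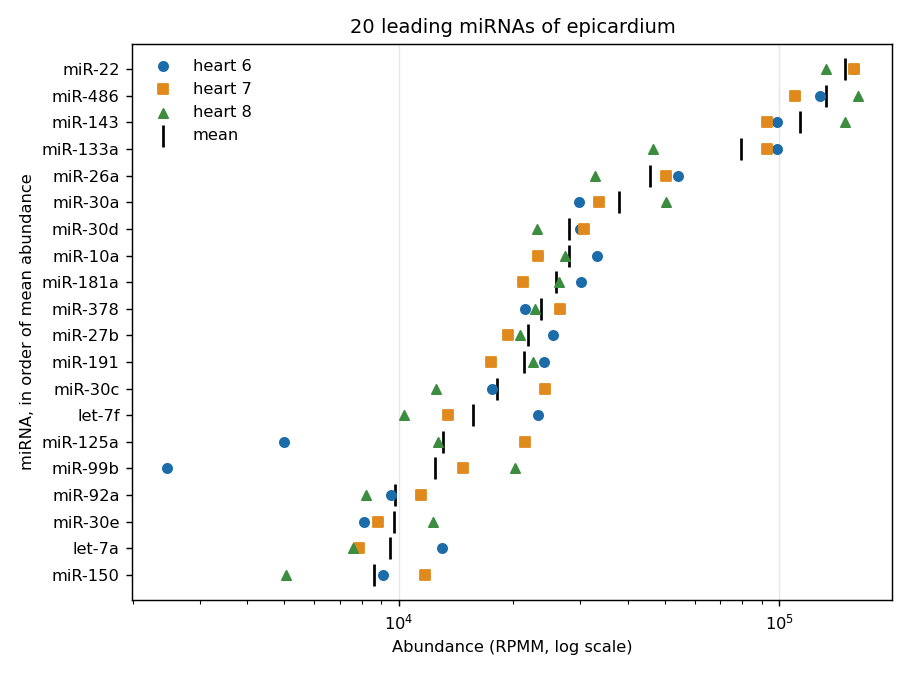
Abundance (RPMM, horizontal log axis) of the 20 miRNAs with the highest mean in epicardium (vertical axis, in order of the mean), with a point for each heart and a bar for the mean. miR-99b ran from 2462 RPMM in heart 6 to 20256 in heart 8, the widest range among the 20, while miR-22 stayed between 133098 and 157517.

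Among the miRNAs known from cardiomyocytes, miR-133a was followed by miR-1 (3901 ± 769 RPMM), miR-499 (878 ± 197), which is encoded in a myosin gene, miR-133b (684 ± 205) and miR-208 (238 ± 94.7), encoded in the alpha myosin heavy chain gene. The 5 listed members of this group summed to 103837, 99534 and 51508 RPMM in hearts 6, 7 and 8, and the lower sum of heart 8 was mostly miR-133a. miR-1 (3759, 4730.2 and 3213 RPMM) and miR-133b (764, 837 and 452) were lowest in heart 8 too. miR-499 (685, 1079.7 and 869) and miR-208 (146, 232 and 335) were lowest in heart 6. In whole tissue fewer cells of a type and less RNA per cell cannot be told apart.

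miR-145, which is cut from the same primary transcript as miR-143 and also marks smooth muscle, had 1421 ± 446 RPMM (1815, 1511 and 937). In epicardium, heart 8 had the most miR-143 and the least miR-145. In its other layers heart 8 had the least miR-143. Mid-myocardium had 88200.0, 120806 and 87502 RPMM of miR-143 in hearts 6, 7 and 8, and endocardium 105356, 138653 and 92882. miR-143 and miR-145 both lie within the non-coding gene Carmn in RefSeq. Of the endothelial group, miR-126 had 5643 ± 2089.9 RPMM and miR-126* had 8015 ± 3445, against 118 ± 58.5 for miR-221 and 58.1 ± 25.1 for miR-222. Fibroblast-associated miRNAs were led by miR-29a (7369 ± 3396), a repressor of collagen genes, and miR-21 (2569.6 ± 528), with miR-29c at 888 ± 244, miR-199a at 187 ± 42.2, miR-29b at 138 ± 38.9 and miR-214 at 123 ± 28.7.

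Of the red cell miRNAs, miR-451 (516 ± 257 RPMM) and miR-144 (39.8 ± 19.7) were far below miR-486. Heart 7 had the most miR-451 (807 RPMM against 423 and 319) but the least miR-486. Among leukocyte miRNAs, miR-150 of lymphocytes had 8639.9 ± 3363 RPMM, miR-146a 984 ± 225, miR-146b 192 ± 39.5, miR-142 290.4 ± 59.3 and miR-223 of myeloid cells 33.6 ± 14.4.

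The epicardial sheet itself is a mesothelium, and markers of epithelia and mesothelia were low in all 3 libraries. miR-203 had 27.9 ± 2.82 RPMM, miR-200b 7.45, 54.5 and 9.66 by heart, with most of its reads in heart 7, miR-200c 11.6 ± 2.84 and miR-141 9.58, and the 4 summed to 57.5, 96.0 and 65.5 RPMM in hearts 6, 7 and 8. miR-200a, miR-429 and miR-205 of this list had no grouped entry. Of the fat list, which bears on the epicardial fat pad, miR-365 had 61.3 ± 25.7 RPMM and miR-193 17.1 ± 5.53. Of the neuronal list, miR-128 had 199.9 ± 106 RPMM, miR-9 156 ± 41.6, miR-218a 36.4 ± 5.60 and miR-138 25.6 ± 8.98. miR-124 and miR-219 of the neuronal list had no grouped entry, nor had miR-196a of the fat list and miR-155 of the leukocyte list. The same held for miR-206 of skeletal muscle and miR-122 of liver.

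The spread between the hearts was measured as the coefficient of variation (CV, SD over mean) for the 135 entries with a mean of at least 100 RPMM. Its median was 0.238, and for 121 of the 135 it was more than 2 times what counting error alone would give. The lowest values belonged to miR-338 (0.0314), miR-504 (0.0336), miR-125b-2* (0.0541), miR-423* (0.0581), miR-24-2* (0.0747), miR-103 (0.0816), the zebrafish entry of miR-92a (0.0871), miR-186 (0.0926), miR-22 (0.0935) and miR-107 (0.0946). In hearts 6, 7 and 8, miR-338 had 103, 85 and 97 reads, miR-504 228, 175 and 217, and miR-24-2* 167, 147 and 153. At such counts, counting error alone would give a CV above theirs, so these 3 low values do not show a steady level. The highest CVs were those of miR-99b (0.730), miR-100 (0.697) and miR-125a (0.633), then miR-15b (0.570), miR-128 (0.528), miR-3585 (0.523), miR-99a (0.504), miR-451 (0.498), miR-221 (0.496) and miR-133a* (0.493). 4 of these 10 belong to the miR-99, miR-100 and miR-125 miRNAs.

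These miRNAs arise from related loci. miR-99b, let-7e and miR-125a lie together within Spaca6 at chr1:67350064-67350759 (+), and miR-100 and let-7a-2 lie within the non-coding gene Lnc215 at chr8:50798295-50805298 (+), with miR-125b-1 farther along at chr8:50850036-50850122 (+). miR-99a and let-7c-1 lie within another non-coding gene at chr11:29687392-29688205 (+), and one of the 2 copies of miR-125b at chr11:29732588-29732609 (+).

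miR-99b stood at 2462, 14739 and 20256 RPMM in hearts 6, 7 and 8, and miR-100 at 989.8, 7224 and 6991. miR-99a had 636, 2013 and 1898 RPMM, miR-125a 4998, 21532 and 12667, and miR-125b 4069, 9662 and 6237. All 5 were lowest in heart 6, by 8.23-fold between the lowest and the highest heart for miR-99b and by 2.37-fold for miR-125b.

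The let-7 miRNAs of the same loci had the other order. let-7e had 869.5, 563 and 468 RPMM in hearts 6, 7 and 8, let-7a 12975, 7875 and 7577, and let-7c 8512, 4619 and 5038. Of the 7 rat let-7 entries above 100 RPMM, 6 were highest in heart 6, the exception being let-7i (4975, 3892 and 4984). Summed, the 7 let-7 entries had 55611, 33998 and 31899 RPMM in hearts 6, 7 and 8, whereas the 5 miR-99, miR-100 and miR-125 entries had 13155, 55169.9 and 48048. let-7a and let-7c are also cut from copies at other loci, and their mature sequences do not tell the copies apart.

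The passenger strands of 3 miR-99 and miR-125 hairpins did not share the range of their partner entries. miR-99b* had 24.5, 23.4 and 16.1 RPMM in hearts 6, 7 and 8, miR-99a* had 71.3, 57.1 and 82.6, and miR-125b-2* had 705, 633 and 660.1. In all 3 cases the * sequence was within 1.52-fold over the hearts, while the entry of the major strand moved by at least 2.37-fold. miR-99b* rested on 23, 18 and 15 reads. The miR-125b entry pools 2 hairpins, so its range is not that of the miR-125b-2 hairpin alone. let-7e* was highest in heart 6, as let-7e was, with 22.4, 15.6 and 8.59 RPMM, from 21, 12 and 8 reads. miR-99b*, miR-99a* and let-7e* were singled out after their values were seen.

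**Figure D3:**
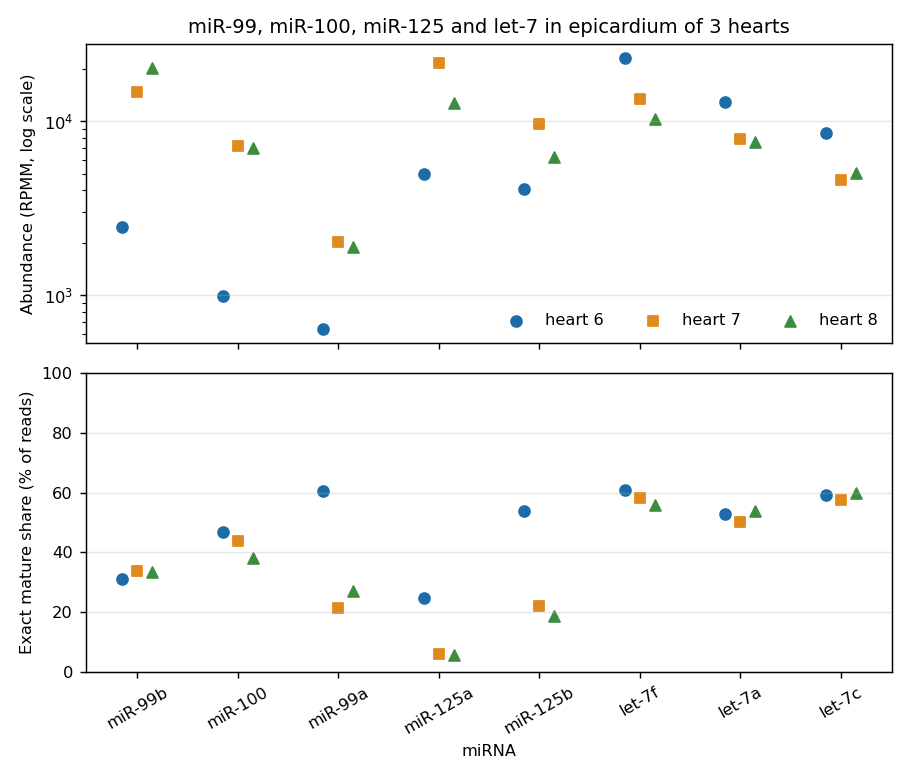
Abundance (RPMM, log axis, upper panel) and share of reads that are the exact mature entry (%, lower panel) of 8 miRNAs in the epicardium of each heart, with 1 point per heart. Heart 6 was lowest in abundance for the 5 miR-99, miR-100 and miR-125 miRNAs and highest for let-7f, let-7a and let-7c, and its exact share was highest for miR-99a, miR-125a and miR-125b and, by smaller margins, for miR-100 and let-7f.

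The ends of the reads also differed by heart for 3 of the 5. The exact mature entry made up 24.6% of miR-125a reads in heart 6 against 6.00% in heart 7 and 5.64% in heart 8. For miR-125b the shares were 53.9%, 21.9% and 18.7%, and for miR-99a 60.7%, 21.5% and 27.0%. Hearts 7 and 8 held more of the following shorter reads, shown here because the difference lies in the last nts.
miR-125b, 20 nts: tCCCTGAGaccctaacttgt
miR-99a, 21 nts: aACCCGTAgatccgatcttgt
miR-125a, 22 nts: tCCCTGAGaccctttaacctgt
The 20-nt read of miR-125b was 6.07%, 39.9% and 32.2% of its reads in hearts 6, 7 and 8, and the 21-nt read of miR-99a 13.9%, 54.0% and 51.5%. The 22-nt read of miR-125a led in every heart, at 50.4%, 70.0% and 64.8%, and all miR-125a reads with a shorter 3′ end made up 65.9%, 88.8% and 88.7%. miR-99b, whose level moved most, kept its exact share (31%, 33.8% and 33.5%), and that of miR-100 was 46.7%, 43.8% and 38.2%. The exact share of let-7f, let-7a and let-7c stayed within 60.8% and 55.7%, 53.8% and 50.1%, and 59.8% and 57.6%.

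The other layers of the same hearts were read for the same miRNAs. Heart 6 had the lowest miR-99b in mid-myocardium (1972, 7655 and 3572 RPMM in hearts 6, 7 and 8) and in endocardium (1604, 10365 and 13794), and likewise miR-100 (743, 2739 and 1558, then 687, 2674 and 5625). Its exact share of miR-125b was 55.9% in mid-myocardium and 56.4% in endocardium, against 25.2% to 44.6% in the other hearts. For miR-99a it was 60.9% and 71.7%, against 26.6% to 49.2%. The mid-myocardium library of heart 6 held 560 reads of miR-99b, 211 of miR-100, 970 of miR-125b and 160 of miR-99a. For each of these miRNAs that was the lowest count of the 9 libraries. The low miR-99b and miR-100 and the high exact shares of miR-125b and miR-99a were thus seen in all 3 libraries of heart 6. What sets heart 6 apart was not tested.

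Among the * sequences, 6 exceeded 1000 RPMM: miR-126*, miR-151* (6968 ± 1454), miR-28* (2778 ± 635), miR-140* (2047 ± 236), miR-30e* (1809.9 ± 775) and let-7d* (1271 ± 242). A partner strand was listed for 53 of the 63 detected. The median ratio of * sequence to partner was 0.0649, and 43 of the 53 stayed below their partner in all 3 hearts. In 7 of the 53 the * sequence was above the partner in every heart. The other 10 detected had no single listed partner and enter neither the ratios nor these counts. Among them were miR-421*, miR-503*, miR-582*, miR-547*, miR-136* and miR-7a-1*, which the paper lists above their mature strand in mid-myocardium. For miR-501*, also among them, the paper found no reads of the mature strand.

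miR-140*, from a hairpin within Wwp2, was the most extreme of those with a listed partner. It had 1888, 1772 and 1707 reads in hearts 6, 7 and 8 against 12, 12 and 8 of miR-140. The ratios were 157, 148 and 213. miR-455* exceeded its partner 14.5-fold on the means, but from 60, 53 and 108 reads against 4, 5 and 6. miR-28* exceeded it 8.61-fold (6.76, 7.66 and 11.9 by heart) and miR-151* 4.54-fold (4.09, 3.45 and 6.50). The others were miR-106b* (2.44-fold), miR-423* (1.61-fold) and miR-361* (1.52-fold). For these 7 hairpins the strand named as minor was the more abundant in every heart.

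The strands of miR-126, the endothelial miRNA, changed order between hearts. miR-126* had 6726, 5399.8 and 11919 RPMM in hearts 6, 7 and 8, and miR-126 had 4929.9, 7997 and 4004. The ratio was 1.36, 0.675 and 2.98, so heart 7 had more of the major strand and heart 8 more of the * sequence. miR-872* was above its partner in heart 7 only (0.929, 2.48 and 0.922) and miR-144* in heart 6 only (1.33, 0.533 and 0.769), from 24, 24 and 30 reads. miR-145* moved within its pair as well, from 0.106 of its partner in heart 6 to 0.391 and 0.513.

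**Figure D4:**
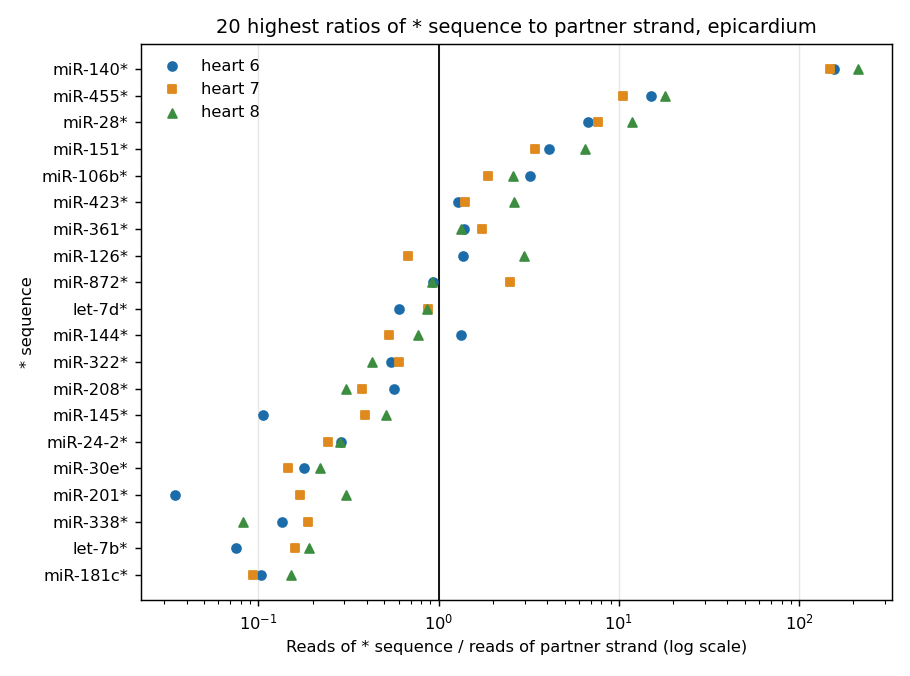
Reads of the * sequence over reads of its partner strand (horizontal log axis) for the 20 detected * sequences with the highest ratio of the means (vertical axis), with a point for each heart and a line at a ratio of 1. The 7 uppermost lie right of the line in all 3 hearts, and miR-126*, miR-872* and miR-144* have points on both sides of it.

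Shares of single read sequences were computed for 54 of the 56 miRNAs above 1000 RPMM, namely the rat entries and miR-486. Reads of miR-5115 and miR-149, annotated through entries of other species, were not analysed at this level. For 32 of the 54 the mature entry was the most common read, and for 22 another sequence was. Among the 20 leading miRNAs the numbers were 8 and 12. The median exact share was 39.0% over the 54 and 23.6% over the leading 20, and it was under 10% for 10 miRNAs.

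miR-22 was the most uniform of the 54, with 93.2%, 91.9% and 92.4% of its reads on the exact entry. miR-191 (75.1% ± 7.54), miR-26a (70.5% ± 2.17), let-7f (58.2% ± 2.51), let-7a (52.2% ± 1.93), miR-181a (50.1% ± 2.70), miR-486 (42.0% ± 1.02) and miR-150 (40.5% ± 3.10) also had the entry as the leading read. The 10 miRNAs under 10% were miR-143 (7.96%), miR-10a (7.05%), miR-133a (5.89%), miR-101a (5.45%), miR-30d (3.56%), miR-30a (3.20%), miR-30e (1.23%), miR-92a (0.916%), miR-140* (0.588%) and miR-10b, whose exact entry was read 1 time. For the other leading miRNAs it was 32.7% for miR-99b, 24.8% for miR-27b, 22.4% for miR-378, 12.6% for miR-30c and 12.1% for miR-125a.

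**Figure D5:**
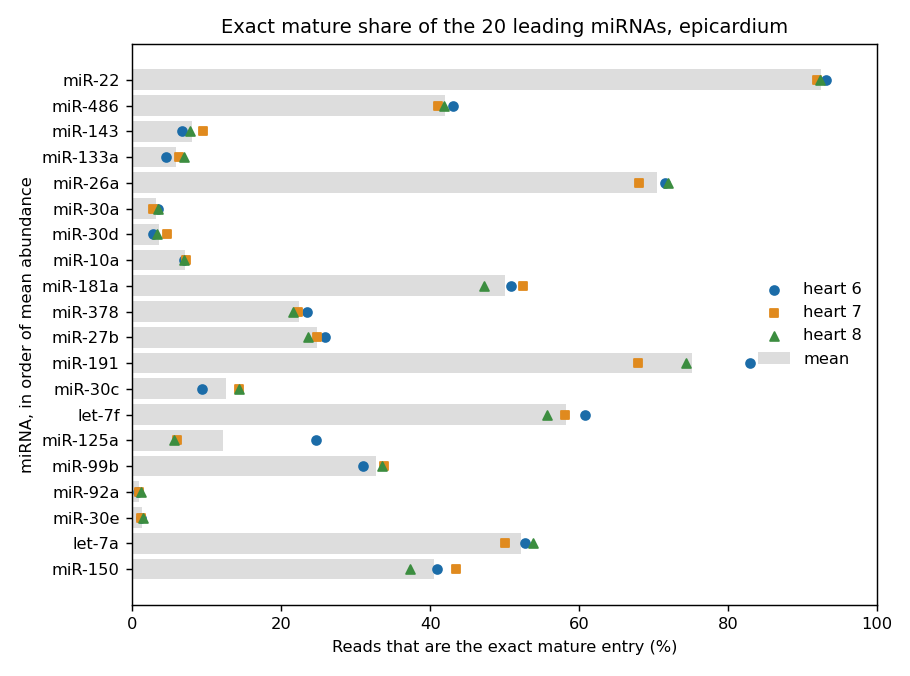
Share of reads that are the exact mature entry (%, horizontal axis) for the 20 leading miRNAs (vertical axis), with a point for each heart and a grey bar for the mean. The points of a miRNA lie close together except for miR-125a, at 24.6% in heart 6 and about 6% elsewhere, and miR-191, from 67.9% to 83.0%.

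The leading reads of those miRNAs show where the entry and the cell differ. Most changes were at the 3′ end, as in the following reads, shown beside their share of the miRNA's reads.
miR-30a, 2 nts longer, 52.3% ± 1.46: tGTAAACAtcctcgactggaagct
miR-30c, 1 nt longer, 80.0% ± 3.12: tGTAAACAtcctacactctcagct
miR-10a, 1 nt shorter, 58.2% ± 1.84: tACCCTGTagatccgaatttgt
miR-27b, 1 nt shorter, 51.3% ± 4.26: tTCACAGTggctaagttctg
miR-99b, 1 nt shorter, 39.3% to 41.0%: cACCCGTAgaaccgaccttgc
miR-92a, 1 nt longer, 26.4% ± 2.77: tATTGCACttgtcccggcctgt
miR-30a, miR-30d and miR-30e all led with a read 2 nts longer than the entry and miR-30c with 1 that was 1 nt longer, so the 4 abundant miR-30 miRNAs with a low exact share ended at 24 nts. miR-30b of the same family did not follow them, with 91.0% ± 2.05 of its reads on the exact entry.

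miR-92a had almost no reads that ended where the entry does: 98.3% ± 0.195 were longer. Besides the read of 22 nts, 2 reads of 24 nts were common, shown because their last nts are not those of the hairpin.
miR-92a, 21.6% to 26.7%: tATTGCACttgtcccggcctgtaa
miR-92a, 20.3% ± 2.56: tATTGCACttgtcccggcctgtat
In all, 64.1% ± 3.53 of miR-92a reads carried a 3′ tail of up to 3 nts that did not match a RefSeq hairpin, with A as the last nt in 38.6% and T in 22.8%.

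Such tails were measured for the 43 miRNAs above 1000 RPMM whose whole mature entry was found in a RefSeq hairpin sequence. The median share of tailed reads was 15.3%, from 1.30% for miR-22 to 70.7% ± 2.83 for miR-101a. They exceeded 20% for 14 miRNAs. The last nt of the tail was most often A for 28 miRNAs, T for 13, C for 2 and G for 0. The split differed by arm: of the 26 miRNAs of the 5′ arm, 22 had A and 3 had T, and of the 17 of the 3′ arm, 6 had A and 10 had T. Tails were also more common on the 3′ arm, with a median of 24% against 8.22%. Examples ending in T were miR-23b (50.7% tailed, 46.9% with T), miR-103 (42.3% tailed) and miR-143 (36.7% and 34.5%). Examples ending in A were miR-125b (31.4% and 25.4%) and miR-10a (10.4% and 9.57%).

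Over all rat reads that could be aligned to an entry (95.7% to 96.4% of the rat reads), 54.3% ± 1.11 had another 3′ end than the entry and 8.36% ± 2.05 another 5′ end. Of the first, 29.1% ± 2.78 of all aligned reads were longer and 25.2% ± 3.51 shorter, and 5′ changes were mostly losses (7.38% ± 2.09). An arm was assigned for 87.6% to 88.9% of the aligned reads, and the rest enter neither arm. Of reads from the 5′ arm, 59.3% ± 5.03 had another 3′ end and 4.25% ± 0.465 another 5′ end. For the 3′ arm these shares were 47.9% ± 1.32 and 11.9% ± 3.82. The 5′ share of the 3′ arm was 14.1% in hearts 6 and 7 and 7.48% in heart 8. Heart 8 also had the least epicardial miR-133a, and a link with that share was not tested. Of * sequences, 46.1%, 51.6% and 40.4% had another 3′ end in hearts 6, 7 and 8 and 10.3%, 11.6% and 8.17% another 5′ end.

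Changes at the 5′ end were concentrated in few miRNAs. The median over the 54 was 1.08%, and 12 miRNAs exceeded 5%. miR-10b was at 99.8% ± 0.0727, miR-140* at 53.9% ± 4.95, miR-133a at 52.5% ± 4.53, miR-126 at 23.8% ± 0.873, miR-10a at 19.6% ± 2.47, miR-101a at 18.5% ± 3.67 and miR-378 at 12.6% ± 2.41. miR-29a (9.71% ± 0.446), miR-30e* (8.39%), let-7d* (6.73%), miR-192 (5.14%) and miR-23b (5.11%) were lower. In miR-10b, miR-101a and miR-29a the reads began upstream of the entry, and in the other 9 most of them began inside it.

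The leading read of miR-10b began 2 nts upstream of the entry, which gives it the start and the seed of miR-10a.
miR-10b, 74.3% ± 1.39: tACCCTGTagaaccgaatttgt
Reads with this start made up 87.8%, 86.3% and 88.2% of miR-10b in hearts 6, 7 and 8, and reads 1 nt upstream 11.9%, 13.4% and 11.6%. The exact entry was read 1 time among 3335 reads in heart 6 and not among the 1645 of heart 7 and the 2612 of heart 8, which allows shares of up to 0.182% and 0.115% there.

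miR-133a split into 2 starts of like size. The exact entry, with the seed TTGGTCC, was 5.89% ± 1.23 of the reads, 91.3% ± 1.66 ran past its 3′ end, and 51.5% ± 4.46 started 1 nt inside the entry, the start that gives the seed TGGTCCC. The leading read, 1 nt shorter at the 5′ end and 1 nt longer at the 3′ end, was 44.7%, 43.4% and 37.8% of miR-133a in hearts 6, 7 and 8. The read with the start of the entry and the extra 3′ nt was 38.2%, 35.1% and 42.7%, so the order of the 2 reads was reversed in heart 8. The RefSeq table places this entry at chr18:2157886-2157907 (-) within Mib1.

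miR-1, the other abundant cardiomyocyte miRNA, differed from the rat entry inside the sequence. At position 17 counted from the 5′ end of the entry, 76.8%, 74.0% and 78.3% of its reads in hearts 6, 7 and 8 carried G17A, and 23.1%, 25.9% and 21.6% the letter of the rat entry. The exact entry held 16.2% ± 1.75. The paper ascribes the reads with A to another miR-1 gene of the rat, whose mature sequence equals human miR-1. They need not be isomiRs of the rat entry.

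Summed by seed, 7.74% ± 1.87 of the reads with a known entry carried another seed than the entry they were annotated to, and 7.37% ± 1.87 did so through another 5′ start. The most common seeds were AGCTGCC of miR-22 (147321 ± 13598 RPMM), CCTGTAC of miR-486 (127482 ± 24867), GAGATGA of miR-143 (112010.0 ± 30265) and GTAAACA of the miR-30 family (94188 ± 6923). No member of the miR-30 family ranked above sixth alone, and the seed, summed over the family, came after that of miR-143. Its level was 86194, 98218 and 98153 RPMM in hearts 6, 7 and 8, while miR-30a was highest and miR-30d and miR-30c were lowest in heart 8. The let-7 seed GAGGTAG summed to 37084 ± 12318 RPMM, with 51263 in heart 6 against 30971 and 29017.

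The largest gain of the sequenced reads over the entries was TGGTCCC at 41146 ± 17175 RPMM, a seed that no rat entry among these reads carries, against 36351 ± 10621 left for TTGGTCC of miR-133a and miR-133b. It stood at 52171, 49909 and 21357 RPMM in hearts 6, 7 and 8. The next gains were shifted seeds of miR-10a and miR-10b (CCCTGTA, 5617 ± 1334), of miR-378 (2868 ± 581), of miR-126 (1121 ± 367) and of miR-101a (1083 ± 271). The largest losses were of the entry seeds of miR-133a, miR-10a, miR-378, miR-10b and miR-486. That of the miR-10b entry, CCTGTAG, was left with 49.5 ± 3.25 RPMM.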

How the data were processed

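Small RNA was read in the epicardium of 3 rat hearts, as 1 library per animal. The authors annotated reads in CLC Genomics Workbench (4.0 in the submitters' processing notes) against miRBase 18, allowing up to 2 mismatches, and only RNA with an integrity number of at least 8 was used. The deposited tables hold values in RPM of annotated reads (RPMM) by read sequence, a signal grouped on the mature sequence, and counts of unannotated sequences. Dividing each value by that of 1 read gave whole reads, and grouped values, deposited on smaller totals, were put back on all annotated reads.

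A miRNA was detected at 10 reads in at least 1 library. Means and SDs are over 3 hearts. Reads were aligned to the mature entry without gaps and with a start at most 3 nts away, by a script first tested on simulated data. Reads filed under names of several entries were left out of read shares, so that 82.8% of miR-103 reads, 86.4% of let-7a, 88.0% of let-7i, 92.5% of let-7f and at least 94.3% of the others entered. Hairpins and positions are from RefSeq (GRCr8). Wilson 95% intervals cover counting error only. No test was run, because the libraries form 1 group. TMM factors came from edgeR 4.0.16 in R 4.3.3, and all else from Python 3.11.15 with pandas 2.3.3, numpy 2.4.6 and scipy 1.17.1.

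Named were the 20 most abundant miRNAs, the 10 with the lowest and the 10 with the highest CV, * sequences above 1000 RPMM or above their partner in all hearts, members of the marker lists, and miRNAs above 1000 RPMM with a low exact share or another 5′ end. Others were named after their values were seen, among them miR-30b, miR-145*, let-7c and let-7e. The miRNAs and lists were chosen with earlier results of these data known. Alternatives changed the read minimum, the total, the scaling, the reads aligned and the hearts included.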

Additional observations from a re-analysis of the deposited data

How the results depend on the processing

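No paired analysis was possible because no result comes from a test. The number of grouped entries detected was 276, and 163 when reads of the exact mature sequence alone were counted. With annotated and unannotated reads as the total, 0 miRNAs exceeded 100000 RPMM instead of 3, since the total is larger by construction. With TMM factors 13 miRNAs had a CV over 0.5, against 7 as reported and 8 with median-ratio scaling. Under both scalings heart 6 was still the lowest for miR-99b, miR-100, miR-99a and miR-125a. The share of aligned rat reads with another 3′ end, 54.3%, was 65.5% without miR-22, 59.9% with equal weight for each miRNA and 53.2% with reads annotated without a mismatch. Reads of 22 nts were 46.9% of annotated reads alone. Only 0.394% of reads with the canonical 5′ end carried another seed, which that choice fixes by construction. Leaving out a heart gave 265 to 270 detected miRNAs, 54 to 57 above 1000 RPMM, 7 or 8 * sequences above their partner, and an unannotated share of 42.4% to 42.9%. The exact share of the 20 leading miRNAs moved by less than the SD in 100 of 100 comparisons, and their abundance in 114 of 140. The other 26 all came from another total, 17 from adding unannotated reads and 9 from rat reads only. In both sets the comparisons that left out a heart were fixed by construction. Leaving out 1 of 3 hearts cannot move their mean by as much as the SD. A count of 3 reads, 3.19 to 3.89 RPMM, limits what could be seen as present, and 3 hearts limit the precision of every SD.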

Other observations

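Among the unannotated sequences, 5 were found within RefSeq hairpins of rat miRNAs, with 107, 85 and 105 reads in all in hearts 6, 7 and 8. They came from Mir676, Mir6314 and Mir6329. The most common, from Mir676, had 41, 46 and 56 reads, and the one from Mir6314 had 29, 11 and 7.
Mir676: ccgtcctgagcttgtcgagc
Mir6314: aggcactgacagatctgatggt
Mir6329: aatgtgactcagctatctga

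miR-15b, the only miRNA with a CV over 0.5 that was highest in heart 6, had 158, 119 and 39.7 RPMM in hearts 6, 7 and 8. Of 2 grouped entries of miR-5115, both annotated through mouse, the larger had 2665, 7415 and 6001 RPMM and was lowest in heart 6, and the smaller had 185, 93.4 and 99.8 RPMM and was highest there. miR-21* had 3, 4 and 34 reads in hearts 6, 7 and 8, while miR-21 had 2000, 1869 and 2939. miR-5115 and miR-21* were singled out after their values were seen.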
